A study of Mus musculus with 13 samples.

Results

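The genes described here are 10 genes of recruited, scar-associated or lipid-associated macrophages, Gpnmb, Trem2, Cd9, Cd63, Lgals3, Itgax, Fabp5, Lpl, Mfge8 and Olr1, out of 23725 genes in the deposited tables. They were chosen by name, and all 10 were found by their Entrez identifiers. On GRCm38 they lie at chr6:49036518-49058182 (Gpnmb), chr17:48346401-48352276 (Trem2), chr6:125460266-125494760 (Cd9), chr10:128896231-128912822 (Cd63), chr14:47373860-47386167 (Lgals3), chr7:128129526-128150657 (Itgax), chr3:10012585-10016610 (Fabp5), chr8:68880555-68906932 (Lpl), chr7:79133768-79149060 (Mfge8) and chr6:129479150-129507350 (Olr1). The choice was made with the results of these livers known, and Olr1 also stands in a gene list that the study drew from these samples. The values of the 10 genes are therefore given as levels and differences, without p-values. Where they passed the threshold of a fit over the whole table, this is counted beside the share of all genes that passed it, as a description.

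Whole-liver RNA of C57 mice aged 3 months was sequenced in 3 groups. Bile duct ligation (BDL) closes the main bile duct and causes cholestasis and fibrosis. The no BDL group held 5 non-treated mice. The miR-Ctrl BDL group held 4 ligated mice given a control oligonucleotide, and the anti-miR-873-5p BDL group held 4 ligated mice given an oligonucleotide against miR-873-5p. The no BDL mice differed from the others in both surgery and injection, so the effects of surgery and of an injected oligonucleotide cannot be told apart in a comparison with them. The question put to the 10 genes was how far their mRNA differed after BDL and whether it differed with inhibition of the microRNA.

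In injured liver, circulating monocytes enter the tissue and become macrophages that sit beside the resident Kupffer cells. Those that take up dead cells and lipid turn on a shared programme in which the receptor Trem2 binds lipids and apoptotic cells and signals through the adaptor Tyrobp, and in which lipid binding, lysosomal and matrix-handling genes are raised. Gpnmb, Cd9 and Trem2 are widely used as markers of such cells in fibrotic liver. Several of the 10 genes are also used by other cells of the liver, Cd9 and Cd63 by bile duct epithelium and many others, Mfge8 by stromal cells and Lpl by fat and muscle cells. In whole-liver RNA, fewer cells of a type and less RNA per cell cannot be told apart.

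The deposited counts allowed 12185333 to 19689037 reads per mouse. Levels below are normalized counts, that is CPM set on a common scale for all 13 mice, and log2 fold changes with standard errors (SE) come from the deposited table of each comparison. Hepatocyte transcripts such as Alb were abundant in all libraries, and the summed level of 8 hepatocyte markers was 121000 to 139000 in no BDL mice, 51300 to 81100 in miR-Ctrl BDL mice and 45100 to 96900 in anti-miR-873-5p BDL mice. The table that compares both BDL groups holds 3 mice per group, because the study's methods removed outlying samples before testing. Mouse 3 of the miR-Ctrl group and mouse 2 of the anti-miR-873-5p group are absent from it. Without the former, the log2 fold changes of Gpnmb, Trem2, Cd9, Lgals3 and Mfge8 against no BDL were 5.91, 3.94, 2.36, 2.88 and 3.30, and without the latter they were 5.88, 4.51, 1.82, 2.37 and 3.48, beside the values with all mice below.

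The microRNA that the treatment inhibits is shown first, since its inhibition is the difference in treatment between the BDL groups. Mature miR-873a-5p, from RefSeq on GRCm38.p6 at chr4:36668556-36668576 on the minus strand, carries its seed, bases 2 to 8, in capitals.
mmu-miR-873a-5p: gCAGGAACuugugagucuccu
The letters that pair with this seed, GTTCCTG, were absent from the annotated 3′ UTRs of all 10 genes. They occurred in 3639 of 21110 coding genes with a 3′ UTR, or 17.2%. A missing match says only that these letters are not in the annotated UTRs.

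Promoters are shown for 4 of the genes because these share a motif. RefSeq start sites gave promoters of 300 bases for 8 of the 10 genes. The start sites used for Cd63, Itgax and Olr1 lay inside the gene extents given above and not at their ends. The AP-1 motif TGANTCA, which reads alike on both strands, lay in the promoters of Gpnmb, Trem2, Itgax and Olr1, and in 7.8% of all 32851 promoters. The PU.1 core GAGGAAG, searched on both strands, lay in those of Trem2 and Cd63 and in 13.6% of all. Neither the E-box CACGTG, held by 7.2% of all promoters, nor the M-box TCATGTG, held by 3.8%, was found in the 8. The stretches below run from 100 bases before the start site to 50 after it on the gene's strand in GRCm38.p6, at chr6:49036418-49036567 (+) for Gpnmb, chr17:48346301-48346450 (+) for Trem2, chr7:128129450-128129599 (+) for Itgax and chr6:129507116-129507265 (-) for Olr1. Capitals mark the AP-1 letters and, in Trem2, also the PU.1 core as read on the other strand, CTTCCTC.
Gpnmb: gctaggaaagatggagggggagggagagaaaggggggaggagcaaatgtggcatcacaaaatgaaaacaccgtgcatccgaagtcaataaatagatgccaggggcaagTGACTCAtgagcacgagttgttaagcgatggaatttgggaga
Trem2: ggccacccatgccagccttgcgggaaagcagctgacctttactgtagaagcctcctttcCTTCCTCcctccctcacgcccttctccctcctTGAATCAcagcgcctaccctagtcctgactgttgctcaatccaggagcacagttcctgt
Itgax: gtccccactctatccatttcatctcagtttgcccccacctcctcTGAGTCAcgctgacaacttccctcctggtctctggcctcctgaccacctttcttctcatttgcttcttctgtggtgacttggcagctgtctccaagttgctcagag
Olr1: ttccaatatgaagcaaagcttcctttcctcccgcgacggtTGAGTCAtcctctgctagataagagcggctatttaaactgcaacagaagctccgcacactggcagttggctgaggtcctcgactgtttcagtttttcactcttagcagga
Counted from the start site, the AP-1 letters began at base 9 of the transcript in Gpnmb and at -9 in Trem2, -56 in Itgax and -60 in Olr1. The matches are a description of the letters and were not tied to binding in these livers.

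After BDL, 9 of the 10 genes were higher with miR-Ctrl than without BDL by the edgeR threshold of an adjusted p of 0.05, and Fabp5 was below its no BDL mean. In the same comparison 19.1% of 13072 genes were called higher, 16.6% lower and 35.7% in either direction. With anti-miR-873-5p, 8 of the 9 genes that passed the filter on low counts were called higher, beside 13.1% of 13130 genes called higher, 8.44% lower and 21.5% in either direction. The groups did not overlap for 8 of the 10 genes with miR-Ctrl, where 14.8% of all genes were apart on the higher side and 14.8% on the lower, and for 6 of the 9 with anti-miR-873-5p, where these shares were 10.1% and 8.23%. None of the 10 genes was apart on the lower side in either comparison. Since the genes were chosen with these results known, nothing is read from the counts. With miR-Ctrl the genes had a median log2 fold change of 3.05, against -0.01 over all genes, and with anti-miR-873-5p the 9 genes that passed the filter had 2.35, also against -0.01. Over these 9 genes the median with miR-Ctrl was 2.80, and with all genes of at least 1 count kept, the medians of all 10 were 3.04 and 2.83. Without mouse 3 of the miR-Ctrl group 9 of 10 genes were called, and without mouse 2 of the anti-miR-873-5p group 8 of 9. Both comparisons share the no BDL mice.

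**Figure D1:**
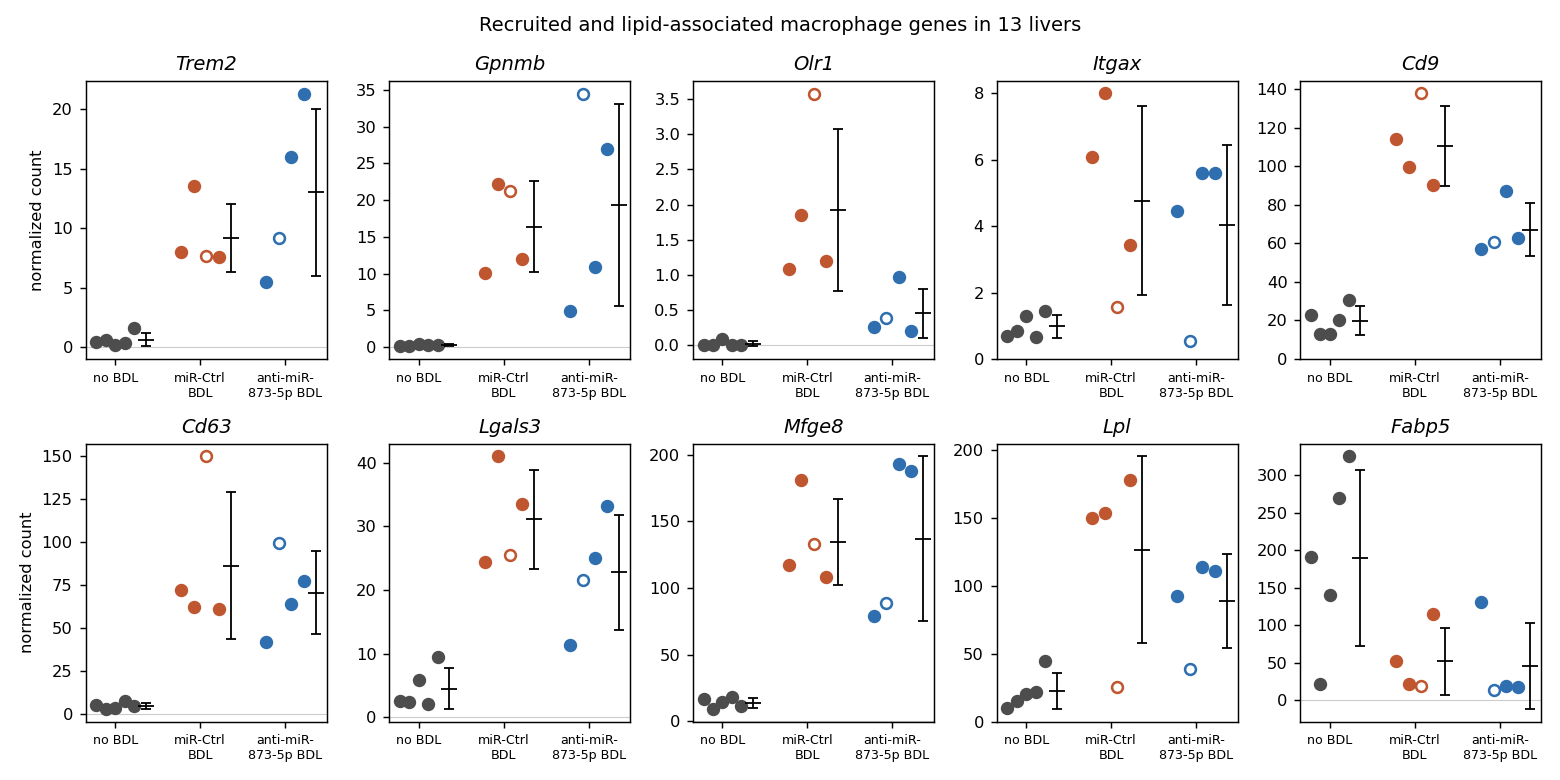
Normalized count of each gene in each of the 13 mice (y axis, linear, separate scale per gene) by group (x axis), with the mean and SD of each group in black. Open circles are the mice absent from the table of both BDL groups. Gpnmb, Trem2, Olr1, Cd9, Cd63, Lgals3 and Mfge8 lay above all no BDL mice in 8 of 8 mice with BDL, whereas Fabp5 did so in 0 of 8. The share of all genes placed so was not counted, and this is a description.

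Among the receptors and surface proteins, Trem2, the lipid-sensing receptor that names the programme, was near its detection limit without BDL. Its normalized counts were 0.432, 0.572, 0.172, 0.329 and 1.59 in the 5 no BDL mice, from 2 to 20 reads. They were 7.95, 13.5, 7.67 and 7.56 in miR-Ctrl BDL mice 1 to 4 and 5.5, 9.18, 16.0 and 21.3 in anti-miR-873-5p BDL mice 1 to 4. Every mouse with BDL lay above every mouse without it, and mouse 5 was the highest of the no BDL group. The log2 fold change of Trem2 against no BDL was 3.88 (SE 0.47) with miR-Ctrl and 4.39 (SE 0.57) with anti-miR-873-5p. Between both BDL groups it was 0.56 (SE 0.47) in 3 mice against 3, and the groups overlapped.

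Gpnmb, a transmembrane glycoprotein of phagocytes and a marker of scar-associated macrophages, was near its detection limit without BDL. There it counted 1 to 5 reads per mouse, with normalized counts of 0.173, 0.0953, 0.429, 0.247 and 0.239. It reached 10.1, 22.2, 21.2 and 12 in miR-Ctrl BDL mice and 4.94, 34.5, 10.9 and 27.0 in anti-miR-873-5p BDL mice. The groups with BDL did not overlap with no BDL, but the anti-miR-873-5p BDL mice differed among themselves by 6.97-fold, against 2.20-fold in miR-Ctrl BDL mice. Against no BDL the log2 fold change was 6.06 (SE 0.38) with miR-Ctrl and 6.30 (SE 0.66) with anti-miR-873-5p. Anti-miR-873-5p against miR-Ctrl gave -0.04 (SE 0.58).

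Olr1, the scavenger receptor for oxidized LDL also known as LOX-1, was at 0 reads in 4 of 5 no BDL mice and at 1 read in the other, mouse 3. Its normalized counts were 1.08, 1.85, 3.58 and 1.2 in miR-Ctrl BDL mice, from 18 to 43 reads, and 0.250, 0.379, 0.966 and 0.197 in anti-miR-873-5p BDL mice, from 4 to 16 reads. All 3 groups were apart, with anti-miR-873-5p BDL between the others. Against a floor of 3 reads per no BDL library, or 0.258 normalized counts, the mean with miR-Ctrl was at least 7.49-fold higher. The mean with anti-miR-873-5p was 1.74 times that floor. Mice 1 and 4 of that group, at 0.250 and 0.197, lay below the floor, so this ratio is no bound for the group. The fitted log2 fold change of 6.19 (SE 0.75) with miR-Ctrl rests on the prior count and is no bound, and in the anti-miR-873-5p table Olr1 did not pass the filter on low counts. Anti-miR-873-5p against miR-Ctrl gave -1.57 (SE 0.59), and -2.08 (SE 0.59) with all 4 mice of each.

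Itgax encodes CD11c, an integrin subunit of dendritic cells and of recruited macrophages. It had normalized counts of 0.691, 0.858, 1.29, 0.658 and 1.43 without BDL, 6.08, 7.99, 1.58 and 3.42 with miR-Ctrl and 4.44, 0.531, 5.61 and 5.60 with anti-miR-873-5p. Mouse 3 of miR-Ctrl BDL was just above the no BDL mice and mouse 2 of anti-miR-873-5p BDL, with 7 reads, was below them, so 7 of 8 mice with BDL exceeded every no BDL mouse. The log2 fold change was 2.30 (SE 0.46) with miR-Ctrl and 2.07 (SE 0.56) with anti-miR-873-5p, and 2.57 (SE 0.34) and 2.41 (SE 0.27) without those 2 mice. With anti-miR-873-5p its call was lost when no BDL mouse 1, 2, 3 or 4 or mouse 3 or 4 of the treated group was left out. Set against miR-Ctrl, anti-miR-873-5p gave -0.16 (SE 0.31). Of the 50-base windows of its transcripts, 8.0% were shared with Itgad, a neighbouring integrin gene, so a part of its counts could belong to that gene.

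Cd9 and Cd63 encode tetraspanins, membrane organizers of the cell surface and of lysosomes and exosomes. Cd9 had normalized counts of 23.0, 12.9, 13.1, 20.1 and 30.7 without BDL, 114, 99.8, 138 and 90.3 with miR-Ctrl, and 57.3, 60.8, 87.4 and 62.9 with anti-miR-873-5p. The 3 groups of Cd9 did not overlap, and the anti-miR-873-5p BDL mice stood between the others. Its log2 fold change against no BDL was 2.49 (SE 0.26) with miR-Ctrl and 1.78 (SE 0.26) with anti-miR-873-5p, and between both BDL groups it was -0.55 (SE 0.18), or -0.72 (SE 0.19) with all 4 mice of each. Cd9 overlaps a gene on the opposite strand, Gm26728, by 218 bp, and 5.7% of its 50-base windows occur in other genes.

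Cd63 had normalized counts of 5.01, 2.76, 3.01, 7.48 and 4.37 without BDL. It had 72.3, 61.9, 150 and 61.0 with miR-Ctrl and 41.8, 99.3, 64.1 and 77.1 with anti-miR-873-5p. All 8 mice with BDL lay above the no BDL mice, and the groups with BDL overlapped. Against no BDL the log2 fold change was 4.26 (SE 0.37) with miR-Ctrl and 3.98 (SE 0.33) with anti-miR-873-5p. Without mouse 3 of miR-Ctrl BDL, the highest Cd63 value of the series, the former was 3.86 (SE 0.26). Between both BDL groups it was -0.10 (SE 0.22), and 11% of the 50-base windows of Cd63 are shared with other genes, the pseudogene Cd63-ps among them.

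The secreted proteins were Lgals3 and Mfge8. Lgals3, the lectin galectin-3, had normalized counts of 2.59, 2.38, 5.93, 2.14 and 9.54 without BDL, 24.4, 41.0, 25.5 and 33.5 with miR-Ctrl and 11.3, 21.6, 25.0 and 33.2 with anti-miR-873-5p. The mice with BDL lay above those without it, although mouse 1 of anti-miR-873-5p BDL came close to mouse 5 of no BDL. The log2 fold change was 2.80 (SE 0.43) with miR-Ctrl and 2.35 (SE 0.47) with anti-miR-873-5p, and -0.51 (SE 0.37) between both BDL groups, which overlapped.

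Mfge8, which bridges apoptotic cells to phagocytes, had normalized counts of 16.8, 9.06, 14.5, 17.9 and 11.4 without BDL. It had 117, 181, 133 and 108 with miR-Ctrl and 78.8, 88.4, 193 and 188 with anti-miR-873-5p. All mice with BDL were above all without it, and the anti-miR-873-5p BDL mice fell on both sides of the miR-Ctrl BDL range, with mice 1 and 2 below it and mice 3 and 4 above it. Against no BDL the log2 fold change was 3.30 (SE 0.23) and 3.33 (SE 0.33), and 0.18 (SE 0.36) between both BDL groups.

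Lpl and Fabp5 handle lipid, Lpl as the lipase that releases fatty acids from lipoproteins and Fabp5 as a cytosolic fatty acid carrier. Lpl had normalized counts of 9.85, 15.3, 20.7, 22 and 44.6 without BDL, 150, 154, 25.2 and 178 with miR-Ctrl and 92.5, 38.5, 114 and 111 with anti-miR-873-5p. The mice absent from the third table, at 25.2 and 38.5, lay within the no BDL range, and the other 6 mice with BDL lay above it. The log2 fold change was 2.52 (SE 0.56) with miR-Ctrl and 2.01 (SE 0.44) with anti-miR-873-5p, and 2.85 (SE 0.38) and 2.25 (SE 0.38) without those 2 mice. Between both BDL groups of 3 it was -0.60 (SE 0.13), with no overlap, and with all 4 mice of each it was -0.51 (SE 0.56), with overlap.

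Fabp5 had the opposite sign to the others and the widest span of the 10 genes without BDL. Its normalized counts were 191, 21.4, 140, 269 and 325 without BDL, 52.5, 21.6, 18.8 and 115 with miR-Ctrl and 131, 14.0, 18.2 and 17.4 with anti-miR-873-5p. Mouse 2 of no BDL was as low as the low mice with BDL, the no BDL group spanned 15.1-fold, and the 3 groups overlapped. The log2 fold change was -1.84 (SE 0.75) with miR-Ctrl and -2.04 (SE 0.87) with anti-miR-873-5p, neither past the threshold, and -0.18 (SE 0.90) between both BDL groups. The last value had no stable sign, and ran from -1.83 without mouse 1 of anti-miR-873-5p to 0.574 without mouse 4 of miR-Ctrl. Against no BDL, leaving out mouse 1 of anti-miR-873-5p moved its value from -2.04 to -3.50. With miR-Ctrl it was past the threshold in DESeq2, and in edgeR without mouse 2 of no BDL or mouse 4 of miR-Ctrl, and with anti-miR-873-5p in edgeR without mouse 1 of that group. Of its 50-base windows, 5.5% are shared with other genes, Fabp5l2 among them.

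**Figure D2:**
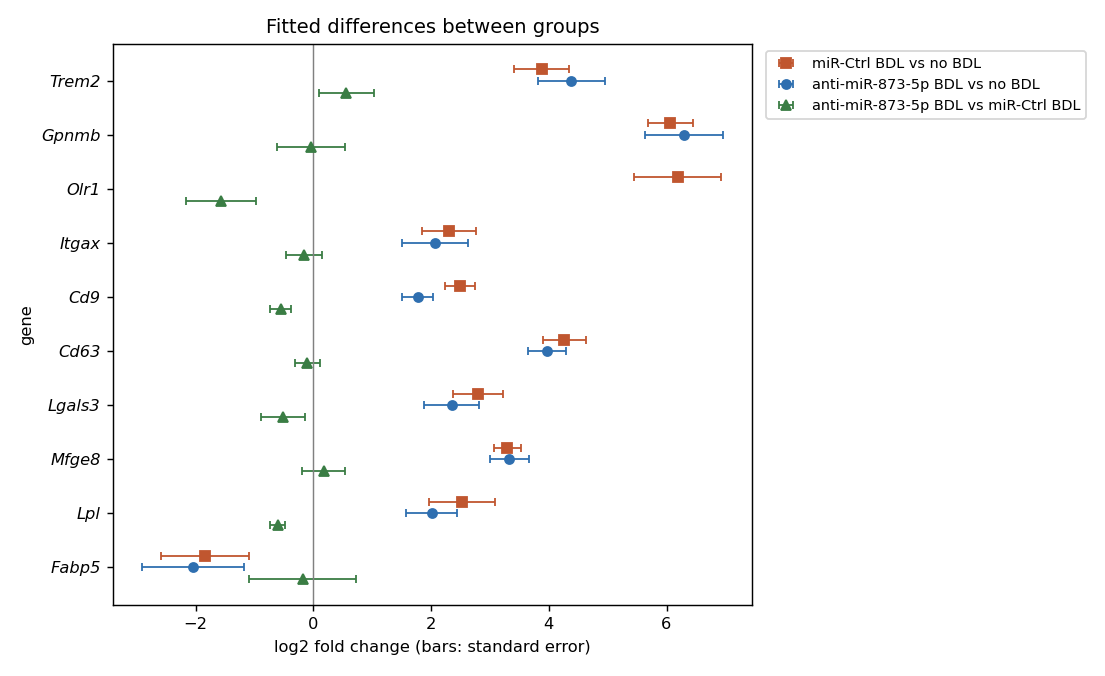
Log2 fold change (x axis) with its SE (bars) of each gene (y axis) in the 3 comparisons: miR-Ctrl against no BDL (squares), anti-miR-873-5p against no BDL (circles) and anti-miR-873-5p against miR-Ctrl (triangles). The fits against no BDL run from -2.04 for Fabp5 to 6.30 for Gpnmb, and those between both BDL groups from -1.57 for Olr1 to 0.56 for Trem2. Olr1 has no circle, since it did not pass the filter there.

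Per kilobase of exon, the order of the levels differed between livers with and without BDL. Without BDL, Fabp5 was highest at 53.1 normalized counts per kilobase, above Cd9 at 9.76 by more than the larger SD, followed by Mfge8 (2.97), Lgals3 (2.43) and Lpl (2.15), which did not differ beyond their spread. Cd63 (1.23) came next, and Itgax (0.205), Trem2 (0.125), Gpnmb (0.0363) and Olr1 were lowest. With miR-Ctrl, Cd9 was highest at 54.1 per kilobase and exceeded Mfge8 at 28.7, while Mfge8, Cd63 (23.5), Lgals3 (16.7), Fabp5 (14.6) and Lpl (12.1) did not differ from their neighbours beyond the spread. Gpnmb (2.51), Trem2 (1.85), Itgax (0.993) and Olr1 (0.540) followed. With anti-miR-873-5p the 6 highest, from Cd9 at 32.8 to Lpl at 8.5, did not differ from their neighbours beyond the spread, and Gpnmb (2.97), Trem2 (2.63), Itgax (0.843) and Olr1 (0.125) were again the lowest. The length decided part of this order. With the longest transcript in place of the exon union, Lpl was 3rd at 30.8 with miR-Ctrl, between Mfge8 (57.8) and Cd63 (29.8). With anti-miR-873-5p, Mfge8 (58.8) was then above Cd9 (54.6), and Lpl (21.6) was above Lgals3 (16.1) and Fabp5 (13.9). In both groups with BDL, Gpnmb and Trem2 were below Cd9 and Cd63 in level per kilobase, while their log2 fold changes against no BDL were above that of Cd9.

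With 3 mice in each ligated group, 0 of the 10 genes passed an adjusted p of 0.05 in edgeR when anti-miR-873-5p was set against miR-Ctrl, and 0% of 13746 genes did, while 863 genes had an unadjusted p under 0.05. DESeq2 called 30 genes, of which Lpl was the 1 gene among the 10. In sign, 8 of the 10 genes were lower with anti-miR-873-5p, with a median log2 fold change of -0.17 against 0.01 over all genes, of which 48.8% were lower in sign. Under the alternatives and with 1 mouse left out, 6 to 8 were lower. Gpnmb turned to 0.247 with all 4 mice of each group, Cd63 to 0.108 without mouse 1 of anti-miR-873-5p, Itgax to 0.129 without mouse 2 of miR-Ctrl and Fabp5 as given above, while Mfge8, one of the others, turned to -0.03 without mouse 3 of anti-miR-873-5p. The groups did not overlap for Cd9, Lpl and Olr1, all lower with anti-miR-873-5p, beside 4.77% of all genes apart in that direction and 6.59% in the other. With all 4 mice of each group, edgeR called 0 of the 10 genes, and Cd9 and Olr1 were apart while Lpl was not. The share of all genes apart in that split was not counted, so nothing is read from it.

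The mice absent from the table of both BDL groups differed from the rest of their group in a shared set of genes. Itgax, Fabp5 and Lpl were below all 3 other mice of the group in both, with Lpl at 0.157 and 0.363 times and Itgax at 0.272 and 0.102 times the mean of the others in mouse 3 of miR-Ctrl and mouse 2 of anti-miR-873-5p, respectively. Fabp5 was only a little below the next lowest mouse, at 18.8 against 21.6 and at 14.0 against 17.4. Cd63 was above the others in both, at 2.31 and 1.63 times their mean. Trem2, Lgals3 and Mfge8 lay within the range of the others in both mice. These mice also had the lowest summed level of 8 endothelial markers in their groups, 34.2 and 50.1 against at least 83.4 in the other mice with BDL, and of the stellate and fibroblast markers, 221 and 216 against at least 417. Their dendritic cell markers, 11.5 and 13.1 against at least 20.4, and their Kupffer cell markers, 733 and 541 against at least 1040 and 772 in the rest of each group, were the lowest as well. The part of these cells in the result was not tested.

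**Figure D3:**
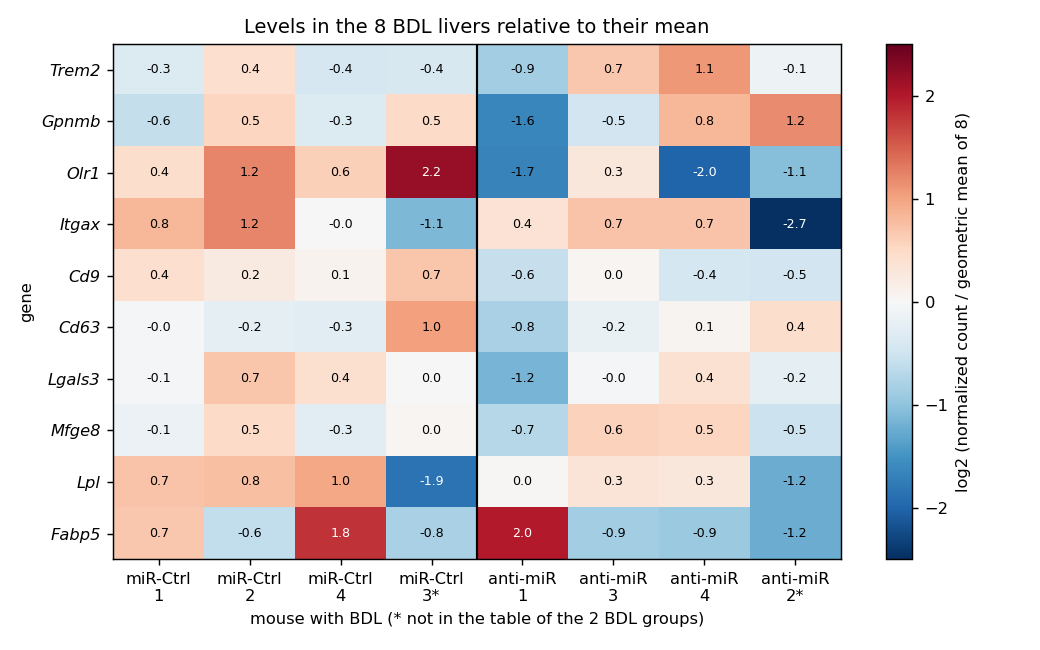
Log2 of each gene's normalized count over its geometric mean in the 8 mice with BDL (colour and printed values), genes in lines and mice in columns. The mice marked with an asterisk, absent from the table of both ligated groups, are low for Itgax, Lpl and Fabp5 and high for Cd63, and mouse 1 of anti-miR-873-5p BDL is the lowest of its group for 6 genes.

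Single mice also set much of the spread within groups. Mouse 5 of no BDL was the highest of its group for 6 of the genes, Trem2, Cd9, Lgals3, Itgax, Fabp5 and Lpl. That mouse also had the highest summed Kupffer cell markers of its group, 1210 against 474 to 678 in the others. Its summed monocyte markers were the highest too, 1770 against 1240 to 1590. The part of these markers in its levels was not tested. Fn1, which hepatocytes also secrete, made up most of the monocyte sums, with a mean of 1376 of 1511 without BDL. With anti-miR-873-5p it was 1483 of 1964, so these sums mostly rank Fn1. Mouse 1 of anti-miR-873-5p BDL was the lowest of its group for 6 genes, Gpnmb, Trem2, Cd9, Cd63, Lgals3 and Mfge8. Its monocyte sum was the lowest of its group at 1470. Its cholangiocyte sum of 67.0 was below mice 3 and 4, at 140 and 108, and above mouse 2, at 62.3. That mouse 2 was the highest of the group for Gpnmb and Cd63. Mouse 2 of miR-Ctrl BDL was the highest of its group for Gpnmb, Trem2, Lgals3, Itgax and Mfge8, and had the highest Kupffer sum of the series at 1840. The part of these cells in the levels of single mice was not tested.

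Other genes of the same macrophage programme, 30 lipid, lysosomal and matrix genes of which 29 passed the filter, moved in the same direction for the most part. Here and for the lists below, the counts stand beside the shares of all genes called. These were 19.1% higher and 16.6% lower with miR-Ctrl, and 13.1% higher and 8.44% lower with anti-miR-873-5p. With miR-Ctrl, 23 rose and 1 fell, and the median log2 fold change was 1.17. With anti-miR-873-5p 16 rose and 0 fell, with a median of 1.17 and with 18 called without mouse 2 of that group and 10 without mouse 3. The lists were chosen with earlier results known, and genes named for their fold were picked among those past the threshold with miR-Ctrl. Their adjusted p-values, here and below, are therefore a description and no test of the lists. Mmp12, the macrophage elastase, rose by a log2 fold change of 4.36 (SE 0.68, edgeR adjusted p = 0.00124) and 4.10 (SE 0.65, adjusted p = 0.00344). Spp1, osteopontin, which bile duct cells also secrete, rose by 3.77 (SE 0.46, adjusted p = 0.000411) and 3.75 (SE 0.57, adjusted p = 0.00307). Ctsb, an abundant lysosomal protease, rose by 0.61 (SE 0.21, adjusted p = 0.0436) with miR-Ctrl, and its value was 0.44 (SE 0.25, adjusted p = 0.233) with anti-miR-873-5p. Its call with miR-Ctrl was lost in 7 of the 9 fits that left out 1 mouse, those without no BDL mouse 1, 2, 3 or 4 or miR-Ctrl mouse 1, 2 or 4 (values from 0.498 to 0.772), and with all genes of at least 1 count kept, all 13 mice in 1 fit or the mouse number as a block. Apoe, the lipid carrier that hepatocytes make in quantity, was the 1 gene that fell, by 0.77 (SE 0.22, adjusted p = 0.0198) with miR-Ctrl, and libraries scaled by size alone gave it a value of 0.02. Its call was lost without no BDL mouse 1 or miR-Ctrl mouse 1 or 4.

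The genes through which Trem2 signals and is shed were higher as well. Of 12 genes 11 passed the filter, and 11 rose with miR-Ctrl (median 1.74) and 7 rose with anti-miR-873-5p (median 1.67), with 0 lower in either. Plcg2, the phospholipase downstream of Trem2, rose by 2.11 (SE 0.50, edgeR adjusted p = 0.00898) and 1.83 (SE 0.56, adjusted p = 0.0416), and Vav1, a guanine exchange factor of immune cells, rose by 2.14 (SE 0.34, adjusted p = 0.00149) and 1.75 (SE 0.40, adjusted p = 0.0160). With anti-miR-873-5p the call of Plcg2 was lost in 6 of 9 fits, those without no BDL mouse 1, 2, 3 or 4 or mouse 3 or 4 of the treated group, with values from 1.45 to 2.36, and that of Vav1 without either of the latter. Adam10, one of the proteases that cut Trem2 from the cell surface, rose by 1.04 (SE 0.12, adjusted p = 0.000380) and 0.93 (SE 0.13, adjusted p = 0.00223). Its relative Adam17 rose by 0.39 (SE 0.12, adjusted p = 0.0326) with miR-Ctrl, and its value with anti-miR-873-5p was 0.18 (SE 0.13, adjusted p = 0.330). The Adam17 call was lost in 6 of 9 fits, those without no BDL mouse 2, 3 or 4 or miR-Ctrl mouse 1, 2 or 4, with values from 0.328 to 0.477. Tyrobp, the adaptor itself, which the naming rule did not pick and which was added after its value was seen, rose by 1.94 (SE 0.49, adjusted p = 0.0128) with miR-Ctrl and had 1.69 (SE 0.56, adjusted p = 0.0547) with anti-miR-873-5p. With anti-miR-873-5p the number called was 9 without mouse 2 of that group and 2 without mouse 3.

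The transcription regulators of the programme, 12 genes of the Mitf, Tfe, liver X receptor and PU.1 families and their partners, showed no common direction. With miR-Ctrl 3 rose and 2 fell (median -0.06), and with anti-miR-873-5p 1 rose and 1 fell (median 0.14). Of all genes, 19.1% rose and 16.6% fell with miR-Ctrl, and 13.1% rose and 8.44% fell with anti-miR-873-5p. The counts of this list were near these shares, so nothing about the list is read from them. Spi1, which encodes PU.1, rose by 1.99 (SE 0.45, edgeR adjusted p = 0.00750) and 1.6 (SE 0.50, adjusted p = 0.0455). The latter call was lost in 6 of 9 fits, those without no BDL mouse 1, 2, 3 or 4 or treated mouse 3 or 4, with values from 1.30 to 2.14. Bhlhe41, a repressor of the clock, fell by 2.59 (SE 0.78, adjusted p = 0.0275) and by 2.73 (SE 0.68, adjusted p = 0.0210). The tables hold different counts of Bhlhe41 for the same no BDL mice, whose mean CPM was 2.58 in the miR-Ctrl table and 7.23 in the other, and its call was lost without no BDL mouse 3 or 4 or miR-Ctrl mouse 1, 2 or 4, with size scaling alone, and with anti-miR-873-5p without treated mouse 3 or 4. Nr1h3, the liver X receptor alpha of hepatocytes and macrophages, fell by 0.35 (SE 0.12, adjusted p = 0.0385) with miR-Ctrl and had -0.35 (SE 0.12, adjusted p = 0.0677) with anti-miR-873-5p, and libraries scaled by size alone turned both values positive. The Nr1h3 call was also lost without no BDL mouse 1, 2 or 5 or miR-Ctrl mouse 1, 3 or 4, with values from -0.405 to -0.300, with all genes of at least 1 count kept and with the block. Bhlhe40 had -0.21 (SE 0.46, adjusted p = 0.759) and -0.61 (SE 0.41, adjusted p = 0.318), which the same scaling also turned positive.

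**Figure D4:**
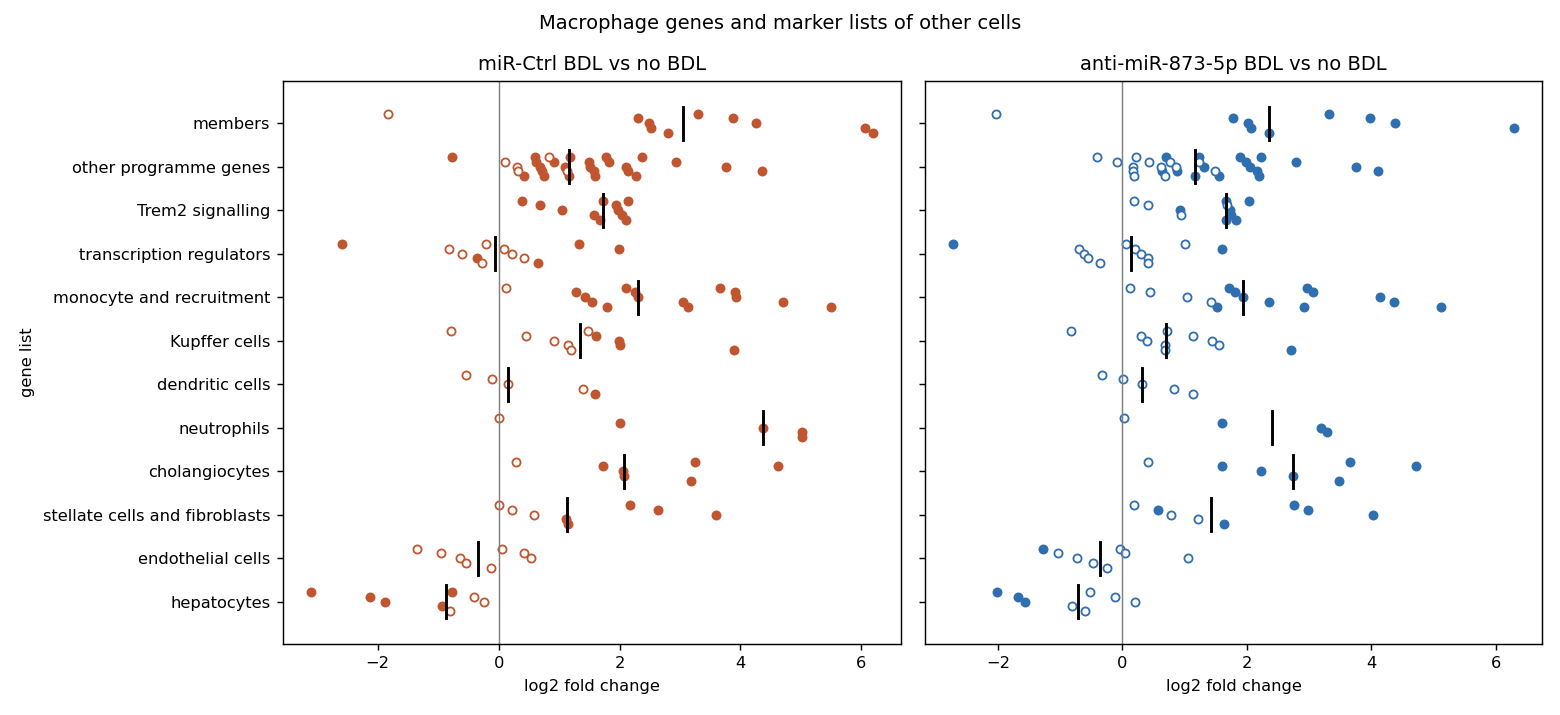
Log2 fold change (x axis) of the genes of each list (y axis) with miR-Ctrl (left) and anti-miR-873-5p (right) against no BDL, filled where the edgeR adjusted p was under 0.05 and open otherwise, with the median of the list as a black line. The line named members holds the 10 genes described here, and adipocyte markers, with 1 gene tested, are left out. The medians of the 10 genes with miR-Ctrl, 3.05, and of the 9 tested with anti-miR-873-5p, 2.35, stand beside those of the monocyte list, 2.30 and 1.94, and of the cholangiocyte list, 2.08 and 2.75.

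Markers of the cells that could supply these transcripts were read beside them. Of 15 monocyte and recruitment genes, 14 rose with miR-Ctrl and 11 with anti-miR-873-5p, with medians of 2.30 and 1.94. Chil3, a secreted lectin of recruited myeloid cells, rose by 5.5 (SE 0.85, edgeR adjusted p = 0.00122) and 5.12 (SE 1.09, adjusted p = 0.0115). Ccl2, the chemokine that draws monocytes, rose by 4.71 (SE 0.49, adjusted p = 0.000211) and 4.14 (SE 0.63, adjusted p = 0.00296), and Lyz2, the myeloid lysozyme, by 2.11 (SE 0.51, adjusted p = 0.00979) and 1.94 (SE 0.51, adjusted p = 0.0250). The Lyz2 call with anti-miR-873-5p was lost in 6 of 9 fits, those without no BDL mouse 1, 2, 3 or 4 or treated mouse 3 or 4, with values from 1.57 to 2.5. The most abundant of the list, Fn1, which hepatocytes also secrete, had 0.12 (SE 0.21, adjusted p = 0.686) and 0.13 (SE 0.18, adjusted p = 0.639). The summed level of the list was 1240 to 1770 without BDL, 1540 to 2570 with miR-Ctrl and 1470 to 2250 with anti-miR-873-5p. No marker was at 0 reads in a whole group. Fn1 made up most of these sums, with means of 1376 of 1511, 1474 of 2038 and 1483 of 1964, respectively. The part of the list in the levels of the 10 genes was not tested.

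Of 10 markers of resident Kupffer cells, 4 rose with miR-Ctrl and 1 with anti-miR-873-5p, beside 19.1% and 13.1% of all genes called higher. The 1 with anti-miR-873-5p was thus near the share of all genes. The medians were 1.34 and 0.70. Summed levels ran from 474 to 1210 without BDL, 733 to 1840 with miR-Ctrl and 541 to 1450 with anti-miR-873-5p. Marco, a scavenger receptor, rose by 3.89 (SE 0.86, edgeR adjusted p = 0.00682) and 2.71 (SE 0.87, adjusted p = 0.0499). With anti-miR-873-5p the Marco call was lost with DESeq2 size factors and in 7 of 9 fits that left out 1 mouse, all but those without no BDL mouse 5 and treated mouse 1, with values from 2.21 to 3.75. Cd5l, a secreted macrophage protein, rose by 2.01 (SE 0.57, adjusted p = 0.0210) with miR-Ctrl and had 1.44 (SE 0.64, adjusted p = 0.137) with anti-miR-873-5p, and its call with miR-Ctrl was lost without no BDL mouse 2 or miR-Ctrl mouse 2 or 4. C6, a complement component, had -0.79 (SE 0.42, adjusted p = 0.176) and -0.83 (SE 0.47, adjusted p = 0.231), which size scaling alone turned positive. Leaving out mouse 5 of no BDL raised the calls to 8 with miR-Ctrl and 5 with anti-miR-873-5p. With anti-miR-873-5p there were 0 calls without no BDL mouse 1, 2, 3 or 4 or treated mouse 3 or 4 and with DESeq2 size factors, and 2 without treated mouse 1. Leaving out mouse 2 of miR-Ctrl BDL left 2 with miR-Ctrl, and leaving out its mouse 3 gave 7.

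Other myeloid markers included those of cells that also use Itgax. Of 8 dendritic cell genes 5 passed the filter, of which 1 rose with miR-Ctrl and 0 with anti-miR-873-5p, where 2 had an unadjusted p under 0.05. Of all genes, 19.1% and 13.1% were called higher, so the 1 of 5 with miR-Ctrl was near that share. Leaving out the mice absent from the third table, 2 of 5 rose with miR-Ctrl and 3 of 6 with anti-miR-873-5p. Batf3, a factor of conventional dendritic cells, rose by 1.6 (SE 0.28, edgeR adjusted p = 0.00239) and had 0.84 (SE 0.37, adjusted p = 0.130) with anti-miR-873-5p, Irf8 had 1.39 (SE 0.52, adjusted p = 0.0595) and 1.13 (SE 0.44, adjusted p = 0.0922), and Clec9a had -0.12 (SE 0.44, adjusted p = 0.863) and 0.01 (SE 0.35, adjusted p = 0.991). Of the neutrophil genes, 4 of 5 tested rose with miR-Ctrl and 3 of 4 with anti-miR-873-5p. S100a8 and S100a9, the calprotectin subunits, rose by 5.01 (SE 1.09, adjusted p = 0.00635) and 5.02 (SE 1.12, adjusted p = 0.00714) with miR-Ctrl, and by 3.19 (SE 0.87, adjusted p = 0.0288) and 3.28 (SE 0.99, adjusted p = 0.0412) with anti-miR-873-5p. The latter calls were lost without no BDL mouse 1, 2, 3 or 4 or treated mouse 4, and for S100a9 also without treated mouse 3, with values from 2.22 to 4.90 and from 2.32 to 5.36. The neutrophil sum of miR-Ctrl BDL mouse 3, 250, stood above 25.2 to 75.7 in the rest of the group, and in that mouse Cd9, Cd63 and Olr1 were the highest of the group. Their part in those levels was not tested.

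Among cells that share Cd9, Cd63, Mfge8 or Lpl, the cholangiocyte markers rose in 6 of 7 genes tested in both comparisons, with medians of 2.08 and 2.75. Krt7 rose by 3.24 (SE 0.28, edgeR adjusted p = 0.000102) and 3.66 (SE 0.43, adjusted p = 0.00114), Cldn4 by 4.62 (SE 0.37, adjusted p = 7.86e-05) and 4.73 (SE 0.60, adjusted p = 0.00143), and Sox9 by 2.05 (SE 0.27, adjusted p = 0.000616) and 1.6 (SE 0.24, adjusted p = 0.00283). The stellate and fibroblast markers rose in 5 of 8 genes in both, Col1a1 by 3.59 (SE 0.39, adjusted p = 0.000236) and 4.03 (SE 0.56, adjusted p = 0.00206) and Col3a1 by 2.63 (SE 0.43, adjusted p = 0.00166) and 2.98 (SE 0.58, adjusted p = 0.00762). Dcn had 0.21 (SE 0.24, adjusted p = 0.512) and rose by 0.57 (SE 0.18, adjusted p = 0.0491). The Dcn call was lost in 6 of 9 fits, those without no BDL mouse 1, 2, 3 or 4 or treated mouse 3 or 4, with values from 0.425 to 0.649, and in the same 3 settings as that of Ctsb. Summed cholangiocyte markers were 28.5 to 38.2 without BDL, 68.9 to 110 with miR-Ctrl and 62.3 to 140 with anti-miR-873-5p, and the part of these cells in the levels of the 10 genes was not tested.

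The markers of fat cells, which use Lpl, were not all near absent. Adipoq, Lep, Plin1 and Retn had at most 3 reads in every mouse. Cfd exceeded 3 reads in the no BDL group and did not with BDL. Adrb3, the 1 of 6 adipocyte genes that passed the filter, had mean normalized counts of 9.61 without BDL, 4.87 with miR-Ctrl and 6.58 with anti-miR-873-5p. Its log2 fold change was -0.93 (SE 0.40, edgeR adjusted p = 0.0972) and -0.52 (SE 0.27, adjusted p = 0.194). Endothelial markers had 0 of 8 genes called with miR-Ctrl, where 1 had an unadjusted p under 0.05, and 1 that fell with anti-miR-873-5p, with 0 called there without no BDL mouse 1, 2, 3 or 4 or treated mouse 3. Of all genes, 16.6% with miR-Ctrl and 8.44% with anti-miR-873-5p were called lower, so the 1 of 8 was near that share. Clec4g had -0.63 (SE 0.50, adjusted p = 0.353) and -0.72 (SE 0.39, adjusted p = 0.211), and Stab2 had -0.55 (SE 0.32, adjusted p = 0.205) and -0.48 (SE 0.31, adjusted p = 0.295). Of the hepatocyte markers 5 of 8 fell with miR-Ctrl and 3 with anti-miR-873-5p, and 7 and 5 without the mice absent from the third table. Cyp2e1 fell by 3.11 (SE 0.30, adjusted p = 0.000130) and by 2.01 (SE 0.29, adjusted p = 0.00231), Ttr by 2.14 (SE 0.22, adjusted p = 0.000212) and by 1.67 (SE 0.30, adjusted p = 0.00571), and Serpina1c by 1.88 (SE 0.23, adjusted p = 0.000453) and by 1.57 (SE 0.30, adjusted p = 0.00735), while Alb had -0.80 (SE 0.34, adjusted p = 0.0931) and -0.82 (SE 0.40, adjusted p = 0.168).

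Between both BDL groups, edgeR called 0 genes of each of these lists. The median log2 fold change was -0.15 for the other programme genes and -0.18 for the Trem2 signalling genes. It was -0.44 for the monocyte list and -0.49 for the Kupffer list, and 0.35 for the cholangiocyte list and 0.35 for the stellate list. Lower in sign with anti-miR-873-5p were 22 of 29, 10 of 12, 12 of 15, 10 of 10, 1 of 7 and 0 of 8 genes of these lists, respectively. Of all genes, 48.8% were lower in sign. The genes of a list were read in the same mice, so their signs are not independent.

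The genes most like Gpnmb and Trem2 in their pattern over the 13 mice were sought among 12888 genes, as the smallest mean absolute difference of centred log2 normalized counts. For Gpnmb these were Upk3b (0.53), Cpe (0.57), Ypel4 (0.60), Timp1 (0.60) and Ccr1 (0.65). Among the 10 genes the nearest to Gpnmb was Cd63 at 0.71, the 7th of the 12888, and Trem2 came 24th at 0.88. For Trem2 these were Lox (0.38), Cldn4 (0.45), Cyp4f18 (0.48), Col5a2 (0.49) and Ltbp2 (0.51), and of the 10 genes Mfge8 came nearest, 18th at 0.59, before Lgals3, 27th at 0.64. Fabp5 was among the least alike to both, 12780th and 12770th. The 13 points are whole livers that share the division into mice with and without BDL, so the likeness is a description of that pattern.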

How the data were processed

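RNA of 13 livers, 1 per mouse, was sequenced. The authors made TruSeq libraries, mapped single reads to mm10 with TopHat and deposited raw counts of reads per Entrez gene in 3 tables, one for each comparison. The submitters' processing notes also name CASAVA 1.8.2, FastQC, Trim Galore and DESeq2. The counting program, its strand setting and the annotation are not given in the sources used here. Of the 23725 Entrez identifiers, 99.75% matched a gene symbol, and 0 columns were left out.

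The tools were edgeR 4.0.16 (with limma 3.58.1) and DESeq2 1.42.0 in R 4.3.3. Within each table, genes passing filterByExpr were scaled by TMM and put to the quasi-likelihood F-test of edgeR. P-values were adjusted by Benjamini-Hochberg over all genes, with a threshold of 0.05. Standard errors are on the log2 scale. Levels per mouse use TMM factors and library sizes over all 13 mice. Both come from the genes that passed filterByExpr among 22246 genes with the same counts in the tables that share a mouse. Lpl, whose count differs by 2 reads in 1 mouse between tables, was put on that scale. Levels per kilobase use the union of exons in GENCODE on GRCm38, which also gave the 3′ UTRs, the overlapping genes and the windows shared between transcripts. Mice were grouped by their labels, which number the mice of each group without stating a pairing. P-values weigh the difference between groups against the spread between these mice.

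The 10 genes and the gene lists were chosen with earlier results of these data known. Outside the 10 genes, each list contributes its 2 most abundant genes and the 2 with the largest fold change past the threshold with miR-Ctrl. The latter passed that threshold by the rule itself, so their adjusted p-values with miR-Ctrl are a description. The values of 1 gene that this rule picks are not reported here. Alternatives were library size alone, DESeq2 size factors, the DESeq2 Wald test, other filters on low counts, all 13 mice in 1 fit, all 4 mice of each BDL group, the mouse number as a block, the longest transcript as the length, and leaving out each mouse.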

Additional observations from a re-analysis of the deposited data

Results flagged for a closer look

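In 29 groups of 4 or 5 mice, counted over the 10 genes, the gap of the highest or lowest mouse to the next was set against the range of its own group. The gap passed Dixon's critical value in 4. Its nominal rate of about 1 in 20 holds for normally distributed values. The normalized counts were used without a log, so that rate need not hold here. This describes single mice and compares no groups. Trem2 in no BDL mouse 5, at 1.59 normalized counts, stood above the next at 0.572. Trem2 in miR-Ctrl mouse 2, at 13.5, stood above the next at 7.95. Cd63 in miR-Ctrl mouse 3, at 150, stood above the next at 72.3. Fabp5 in anti-miR-873-5p mouse 1, at 131, stood above the next at 18.2.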

How the results depend on the processing

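Depth limits Olr1, Gpnmb and Trem2 without BDL, which rest on 0 to 20 reads per mouse, and Itgax in single mice with BDL. Scaling by library size alone moved the median over all genes to a log2 fold change of 0.79 with miR-Ctrl and 0.82 with anti-miR-873-5p against no BDL, and raised the genes called to 9635 and 10194, of which 9360 and 10063 were higher, against 2491 of 4666 and 1715 of 2823 with TMM. Relative to these medians, Gpnmb was at 6.05 and 6.29 and Fabp5 at -1.84 and -2.09. The same scaling turned the log2 fold change positive for Apoe (0.0229 and 0.383 with miR-Ctrl and anti-miR-873-5p), Bhlhe40 (0.496 and 0.143), Nr1h3 (0.467 and 0.49), C6 (0.0804 and 0.0264), Clec4g (0.214 and 0.155) and Stab2 (0.278 and 0.378), and with miR-Ctrl for Clec9a (0.699) and Alb (0.00223), and with anti-miR-873-5p for Adrb3 (0.281). All of these values with size scaling lay below the medians over all genes, 0.79 and 0.82. Clec9a with anti-miR-873-5p was -0.00586 with all genes of at least 1 count and -0.0262 with all 13 mice in 1 fit.

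Between both BDL groups, DESeq2 called 30 genes against 0 in edgeR, and 1 of the 10 genes, Lpl, and the cause was not tested. Across the alternatives other than leaving out a mouse, 8 to 10 of the 10 genes were called with miR-Ctrl and 7 to 9 with anti-miR-873-5p against no BDL, the 8 among 9 genes where Lpl was not in the fit of 13 mice, and the direction of a called gene among the 10 did not turn in any alternative run.

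Leaving out 1 mouse at a time, 9 to 10 of the 10 genes were called with miR-Ctrl and 7 to 9 with anti-miR-873-5p. Genes called ranged from 3775 to 5710 with miR-Ctrl, from 1261 (without mouse 3 of the treated group) to 4317 (without mouse 2) with anti-miR-873-5p, where leaving out mouse 4 gave 1392 and leaving out no BDL mice 1 to 4 gave 1713 to 1824, and from 0 to 1 between both BDL groups, the 1 without mouse 3 of anti-miR-873-5p. Bhlhe40 ranged from -0.664 to 0.0261 and Fn1 from -0.122 to 0.216 with miR-Ctrl, and Clec9a from -0.61 to 0.171 with miR-Ctrl and from -0.326 to 0.242 with anti-miR-873-5p. Of the lists with anti-miR-873-5p, calls ranged from 0 to 4 for the transcription regulators and the neutrophils and from 0 to 3 for the dendritic cells.

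Deviations of same-numbered mice from their group means had correlations from -0.0796 to 0.0322 with miR-Ctrl and from -0.209 to 0.0857 with anti-miR-873-5p. Between both BDL groups the 2 same-numbered pairs gave 0.369 and -0.0338, too few to tell whether the numbers pair the mice. The labels state no pairing. With the mouse number as a replicate block, 4063, 2195 and 0 genes and 9, 7 and 0 of the 10 genes were called in the 3 comparisons, Itgax losing its call with anti-miR-873-5p, and Clec9a was at -0.0899 there.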
